A study of Mus musculus with 12 samples.

Results

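Amino acid transporter genes were followed across 12 mouse arrays, as the families Slc1, Slc7, Slc36, Slc38 and Slc43 with the heavy chains Slc3a1 and Slc3a2. They were chosen by gene symbol, and 60 of the 41174 probes on the array carried such a symbol, for 41 of 17178 named genes. The 41 genes comprised 7 of Slc1, 2 of Slc3, 15 of Slc7, 4 of Slc36, 10 of Slc38 and 3 of Slc43, and Slc38a6 was the 1 gene of these families in the RefSeq table that had no probe here. The study set adult mouse epithelial cells beside cells made to change their organ identity by stroma, and measured messenger RNA with single-colour Agilent arrays after low-input amplification. The 4 groups of 3 arrays were named lung and mammary epithelial cells of adult mice, Reprogrammed Lung and Reprogrammed Mammary epithelial cells. Adult donors were female mice aged 10 weeks with no transgene or treatment named, and the sources used here give no strain. Their organs were digested with trypsin and collagenase, and epithelium was enriched by repeated low-speed spins with no cell sort named. It is not stated which organ a reprogrammed name refers to, that of the donor cells or that of the tissue made, or whether arrays of a group came from separate animals. The p-values below therefore measure the spread between arrays, which may be technical, and in such bulk samples fewer cells of a type and less RNA per cell cannot be told apart.

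Amino acid transporters move amino acids across the plasma membrane and the lysosomal membrane. The Slc1 family takes up glutamate or exchanges small neutral amino acids and glutamine. Slc38 members carry glutamine and other small neutral amino acids together with sodium, and some Slc36 members couple uptake to protons. The cationic Slc7 carriers import arginine and lysine, whereas the other Slc7 members are light chains that reach the membrane with a heavy chain, Slc3a1 or Slc3a2. In the mammary gland these carriers supply amino acids for milk protein, and in the lung they serve epithelium, vessels and immune cells.

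A level is given as log2 of the gene's background-corrected intensity relative to the 75th percentile of its array, so that 0 is the brightness of that percentile. A gene with several probes is represented by its brightest one, and levels are compared only within a gene. Of the 41 genes, 36 were well above background on all 3 arrays of at least 1 group and were tested, and 30 were above background on all 12 arrays. A gene is called different at an adjusted p under 0.05 in limma's moderated test, with p adjusted over all 24497 features tested. The arrays were alike except for 2, since 89.1% of the probes of adult mammary replicate 4 and 91.1% of those of reprogrammed lung replicate 1 were above background, against 71.7% to 77.5% on the other 10. The spread of log2 signal over their probes was also narrower, at 7.11 and 6.10 between the outer deciles against 8.46 to 9.13. Without both arrays, 19 transporter genes were called between the adult groups and 19 between the lung groups.

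The cell type markers bore out the organ of the adult groups but showed other cells as well. All 9 alveolar type II genes tested were higher in adult lung than in adult mammary, as were 6 of 7 alveolar type I and 6 of 6 airway secretory genes, whereas 10 of 12 luminal and milk genes and 6 of 8 basal genes were lower. Of the 12 luminal and milk genes, 5 were not above background on any adult lung array (Csn1s1, Csn1s2a, Csn2, Btn1a1 and Esr1). The others, Csn3, Wap and Lalba among them, were above background on at least 1. Against adult lung, reprogrammed lung was lower in all 9 alveolar type II, 6 of 7 alveolar type I and 6 of 6 airway secretory genes. It was higher in 10 of 12 luminal and milk genes and in 4 of 8 basal genes. Of the genes in these lists, 0 were called between reprogrammed lung and adult mammary. The lung factor Nkx2-1 was above background on at least 1 adult lung array and on no array of the other 3 groups. Adult lung was lower in 7 of 8 general epithelial genes, and their summed level, in multiples of the 75th percentile, was 21.1 to 28.0 in adult lung, 208 to 270.0 in adult mammary, 32.3 to 193 in reprogrammed lung and 218 to 247 in reprogrammed mammary. Of 10 endothelial genes, 9 were higher in adult lung, with a summed level of 182 to 212 against 29.2 to 65.2, 64.1 to 74.4 and 45.3 to 53.0 in the other 3 groups in that order. The adipocyte list summed to 12.2 to 14.7 in adult lung, 69.6 to 139.7 in adult mammary, 6.83 to 134 in reprogrammed lung and 71.8 to 93.3 in reprogrammed mammary. Among the blood and stromal lists, the numbers higher and lower in adult lung were 1 and 2 of 8 for macrophages, 1 and 0 of 10 for T and NK cells, 0 and 0 of 7 for B cells, 2 and 2 of 9 for fibroblasts and 4 and 0 of 5 for erythroid cells. Reprogrammed lung replicate 1 had a summed B cell level of 92.1 against 1.09 and 2.05 on the other 2 arrays of its group, and a T and NK cell level of 23.2 against 0.843 and 2.60. Adult mammary replicate 4 had 9.88 for B cells against 1.27 and 1.08, and 18.5 for T and NK cells against 0.948 and 0.997. Reprogrammed mammary replicate 2 had 15.3 for B cells against 5.82 and 1.35, and 27.4 for T and NK cells against 2.26 and 0.988. The adult lung arrays ran from 4.62 to 5.75 for B cells and from 6.88 to 11.1 for T and NK cells. The part of these cell mixtures in the transporter differences was not tested.

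Levels of many amino acid transporters differed between adult lung and adult mammary cells, and 30 of the 41 genes were above background on every array. Of 36 genes, 9 were higher in adult lung and 8 lower, while 28.5% of all features were called in this comparison, 12.5% higher and 15.9% lower. The absolute log2 difference had a median of 0.87 among the transporters and 0.52 over all features, and the signed medians were 0.02 and 0.00. The arrays of the groups did not overlap for 23 of the 36, where 52.9% of all features had no overlap. Slc7a10 and Slc38a5 were 68.6-fold and 65.5-fold higher in adult lung, with log2 differences of 6.10 and 6.03. With normexp background correction these were 3.84 and 4.05. That setting adds an offset to every signal, which weighs most on dim ones. The arginine carrier Slc7a2 was lower, with a log2 difference of -3.33.

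**Figure D1:**
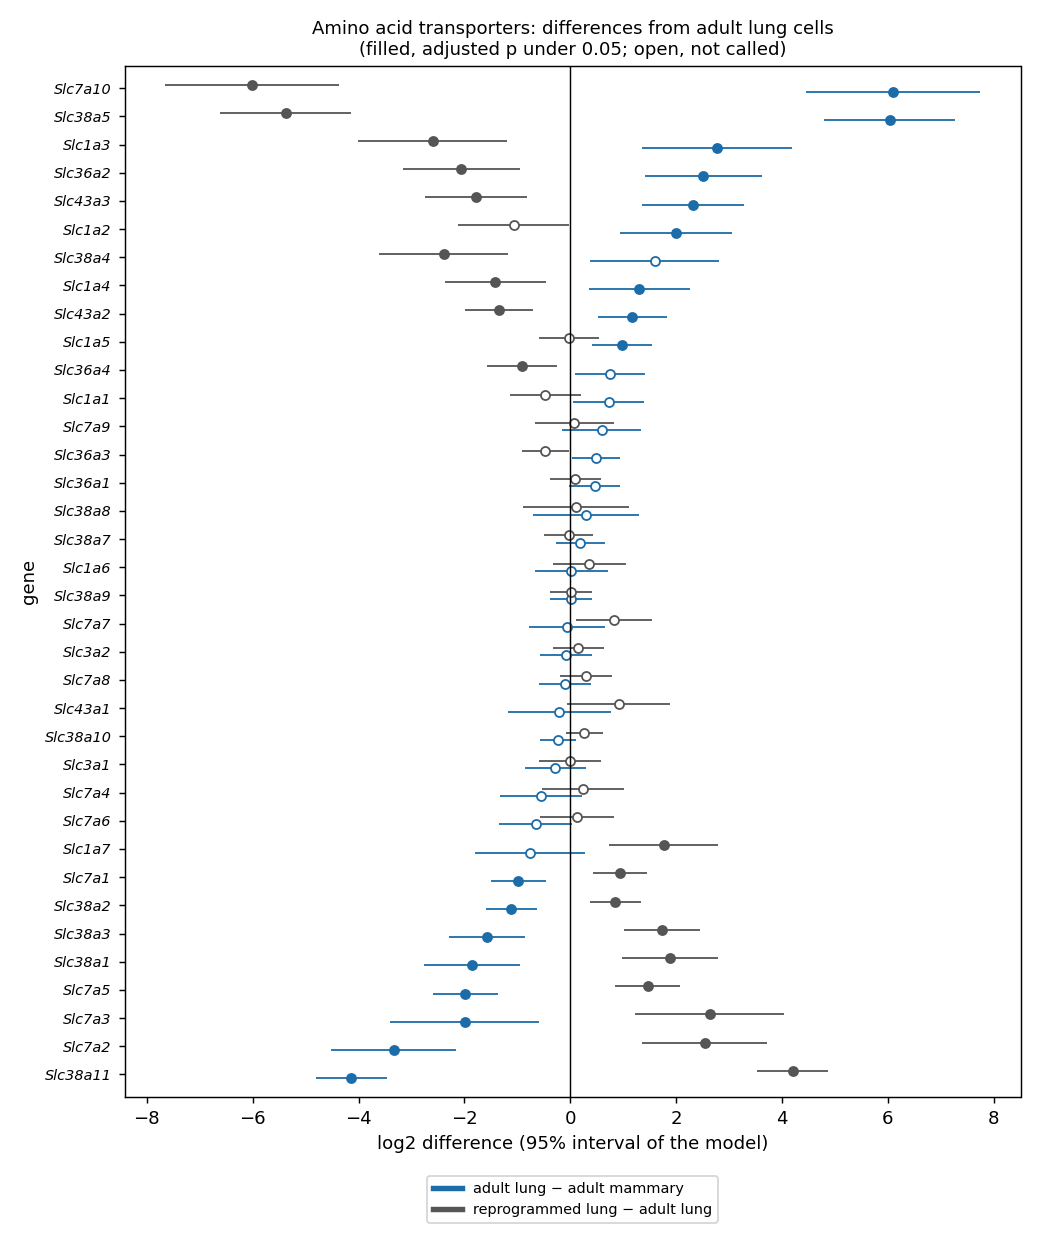
Log2 difference of each of the 36 tested transporter genes (horizontal axis, with the model's 95% interval) for adult lung minus adult mammary and for reprogrammed lung minus adult lung, filled where the adjusted p was under 0.05. Both comparisons use the 3 adult lung arrays, and Slc7a10 lies at 6.10 and -6.01. The Slc38a11 points rest on adult lung signals not above background, so its differences are bounds of at least 3.57-fold and 3.74-fold, and they were 0.02 and 0.09 on the log2 scale with normexp.

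Slc7a10, the light chain of the alanine-serine-cysteine exchanger Asc-1, is known from neurons and from white adipocytes. Its level on adult lung replicates 1, 2 and 3 was 1.13, 1.58 and 1.37, and on adult mammary replicates 1, 2 and 4 it was -5.09, -5.20 and -3.92. On reprogrammed lung replicates 1, 3 and 4 it was -3.00, -6.42 and -4.54, and on reprogrammed mammary replicates 1, 2 and 3 it was -3.90, -4.18 and -5.40. All 3 adult lung arrays were far above every other array, and the other 3 groups overlapped. Slc7a10 was above background on 1 of 3 adult mammary arrays and on 2 of 3 in each reprogrammed group. It was 68.6-fold higher in adult lung than in adult mammary (log2 6.10 ± 0.74 SE, adjusted p = 0.000275) and 64.7-fold lower in reprogrammed lung than in adult lung (log2 -6.01 ± 0.74 SE, adjusted p = 0.000338). Without reprogrammed lung replicate 3 the latter was -5.13. With normexp the 2 differences were 3.84 and -3.65 on the log2 scale, and both stayed called.

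Slc38a5, a sodium-coupled glutamine carrier that also exports glutamine, showed the same order. Its level was 1.54, 1.83 and 1.69 in adult lung, -4.62, -5.06 and -3.36 in adult mammary, -3.27, -3.87 and -3.95 in reprogrammed lung and -3.89, -2.01 and -4.13 in reprogrammed mammary, with the replicates in the order just given. Adult lung again stood above the other 9 arrays without overlap, and 1 adult mammary array was not above background. The log2 difference was 6.03 ± 0.56 SE between the adult groups (65.5-fold, adjusted p = 5.54e-05) and -5.38 ± 0.56 SE between reprogrammed and adult lung (41.6-fold, adjusted p = 0.000135). With normexp the 2 differences were 4.05 and -3.75, and both stayed called.

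Slc38a11, a little-studied member of the sodium-coupled family, had the opposite order. Its level was -6.92, -7.23 and -7.43 in adult lung, where no array was above background, and -2.96, -3.30 and -2.92 in adult mammary. It was -3.59, -2.43 and -2.95 in reprogrammed lung and -3.49, -3.48 and -2.85 in reprogrammed mammary, above background on all 9 arrays. Slc38a11 was at least 3.57-fold lower in adult lung than in adult mammary and at least 3.74-fold higher in reprogrammed than in adult lung. The bound takes the dimmest signal marked above background on each adult lung array. The limma test used the adult lung values as measured, with log2 differences of -4.13 (adjusted p = 1.52e-05) and 4.20 (adjusted p = 1.51e-05). With normexp the log2 differences were 0.02 (adjusted p = 0.976) and 0.09 (adjusted p = 0.902).

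The start regions of these 3 genes are shown as examples. Their levels set the adult lung arrays apart from all 9 others. Those of further transporters did so too, Slc1a3, Slc36a2, Slc7a2, Slc7a3, Slc7a5, Slc38a1 and Slc43a3 among them. Each sequence is the 250 bases before the annotated RefSeq start on GRCm38.p6, read 5′ to 3′ along the gene, with capitals for a match to a searched motif. Slc7a10 lies on the plus strand at chr7:35186135-35186384, Slc38a5 on the plus strand at chrX:8271131-8271380 and Slc38a11 on the minus strand at chr2:65364027-65364276.
Slc7a10: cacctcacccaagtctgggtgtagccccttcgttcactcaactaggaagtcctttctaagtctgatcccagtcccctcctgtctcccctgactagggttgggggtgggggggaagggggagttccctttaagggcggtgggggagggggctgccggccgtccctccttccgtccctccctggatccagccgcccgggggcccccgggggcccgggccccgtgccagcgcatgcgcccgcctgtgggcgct
Slc38a5: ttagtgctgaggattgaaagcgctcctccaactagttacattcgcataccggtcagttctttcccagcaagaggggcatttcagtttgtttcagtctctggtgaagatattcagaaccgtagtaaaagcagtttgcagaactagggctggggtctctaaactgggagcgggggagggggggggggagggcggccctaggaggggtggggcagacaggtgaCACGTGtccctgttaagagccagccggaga
Slc38a11: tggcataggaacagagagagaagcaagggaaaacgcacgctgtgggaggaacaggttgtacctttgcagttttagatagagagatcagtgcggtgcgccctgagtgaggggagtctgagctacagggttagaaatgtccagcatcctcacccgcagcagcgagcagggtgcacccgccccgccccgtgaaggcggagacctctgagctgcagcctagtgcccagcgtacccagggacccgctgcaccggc
Both strands were searched for the amino acid response element TGATGNAA, the STAT site TTCNNNGAA, the E-box CACGTG and the antioxidant element core TGACNNNGC. Only the E-box was found in these windows, once in that of Slc38a5. The 30 of the 41 transporter genes that had windows had 41 of them, and some genes had several. The amino acid response element was in 3 of the 41 windows (of Slc7a7 and Slc7a11) and in 3.45% of 32851 windows of all genes. The STAT site was in 4 (of Slc1a3, Slc7a1, Slc7a11 and Slc38a9), against 7.02% of all windows. The E-box was in 7, that of Slc38a5 among them, against 6.02%, and the antioxidant core in 4 (of Slc7a1, Slc7a6, Slc38a2 and Slc43a1), against 10.2%. A match is a run of letters and was not tested as a binding site.

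Most cationic carriers of Slc7 were lower in adult lung. Of 4 tested, Slc7a1, Slc7a2 and Slc7a3 were lower than in adult mammary (Slc7a3 with the opposite sign under normexp), 0 were higher, and the orphan relative Slc7a4 was not called. Of all features, 15.9% were lower and 12.5% higher in that comparison. Slc7a2, an arginine and lysine carrier found in liver, muscle and activated macrophages, was at -2.12, -1.80 and -2.09 in adult lung, 1.85, 0.68 and 1.45 in adult mammary, -0.72, 0.67 and 1.64 in reprogrammed lung and 2.80, 1.87 and 2.83 in reprogrammed mammary. Adult lung lay below every other array, and all 3 reprogrammed mammary arrays lay above all 3 of reprogrammed lung. The difference between the adult groups was -3.33 ± 0.53 SE on the log2 scale (adjusted p = 0.00125), and reprogrammed lung was 5.81-fold above adult lung (log2 2.54 ± 0.53 SE, adjusted p = 0.00644). Without reprogrammed lung replicate 1 the latter was 3.16.

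Slc7a3, the arginine carrier best known from brain, was at -6.13, -5.98 and -5.15 in adult lung, where no array was above background. It was at -4.63, -2.97 and -3.68 in adult mammary, -2.41, -4.75 and -2.19 in reprogrammed lung and -4.82, -4.48 and -4.58 in reprogrammed mammary. The 3 adult lung arrays were the lowest of the 12, and the other groups overlapped. By group means, Slc7a3 was at least 2.19-fold lower in adult lung than in adult mammary. By the same measure it was at least 3.43-fold higher in reprogrammed lung than in adult lung, although reprogrammed lung replicate 3 was at -4.75. The limma test used the values as measured, with log2 differences of -1.99 (adjusted p = 0.0393) and 2.64 (adjusted p = 0.013). The call between the adult groups was lost without any 1 of 7 arrays, with log2 from -1.99 to -1.59 and adjusted p from 0.0549 to 0.139. These were adult lung replicates 1 and 2, adult mammary replicates 2 and 4 and each reprogrammed mammary array. Without adult lung replicate 1 the lung comparison gave 2.45 (adjusted p = 0.0518), and without reprogrammed lung replicate 3 it gave 3.45. With normexp the Slc7a3 difference between the adult groups was 0.45 (adjusted p = 0.380), and that between the lung groups 0.00 (adjusted p = 0.998). Slc7a1, the widely expressed arginine carrier, was at -0.23 ± 0.04 in adult lung and 0.75 ± 0.22 in adult mammary (SD, n = 3 each), a log2 difference of -0.98 ± 0.23 SE (adjusted p = 0.0105).

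The sodium-coupled Slc38 family was split. Of 10 tested genes, Slc38a5 was higher in adult lung than in adult mammary, and Slc38a1, Slc38a2, Slc38a3 and Slc38a11 were lower, the last 2 with the opposite sign under normexp. Over all features 12.5% were higher and 15.9% lower. Slc38a1, a high-affinity glutamine importer, was at -1.10 ± 0.53 in adult lung and 0.75 ± 0.68 in adult mammary (SD, n = 3 each), with a log2 difference of -1.85 ± 0.41 SE (adjusted p = 0.00744). Slc38a2, the carrier that rises when cells lack amino acids, differed by -1.11 ± 0.22 SE (adjusted p = 0.00377). Slc38a3, a glutamine carrier of liver and brain, differed by -1.57 ± 0.32 SE (adjusted p = 0.00479), although with normexp its difference was 0.09 (adjusted p = 0.849). Slc38a4, the member known from liver and placenta, differed by 1.59 ± 0.55 SE and did not pass (adjusted p = 0.0535). Slc38a1, Slc38a2 and Slc38a4 are neighbours in the genome, where Slc38a1 adjoins Slc38a2 and Slc38a2 adjoins Slc38a4, and their differences here did not share a sign. The lysosomal members Slc38a7 and Slc38a9, the latter an arginine sensor for mTORC1, differed by 0.19 and 0.02 and were not called.

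In Slc1, 2 of 5 glutamate carriers and both neutral exchangers were higher in adult lung than in adult mammary, and 0 were lower. The shares of all features were 12.5% higher and 15.9% lower. Slc1a3, the glutamate carrier of astroglia, was at -1.08, -1.33 and -1.46 in adult lung, -5.06, -3.13 and -4.01 in adult mammary, -2.89, -5.35 and -3.42 in reprogrammed lung and -4.37, -3.23 and -4.28 in reprogrammed mammary. Adult lung was above all other arrays, and the other 3 groups overlapped. The log2 difference between the adult groups was 2.78 ± 0.64 SE (6.86-fold, adjusted p = 0.00879, with 2 of 3 adult mammary arrays above background). Slc1a2, the other main glial carrier, was higher by 2.00 ± 0.47 SE (adjusted p = 0.0105), but its second probe gave 0.83 (adjusted p = 0.311). Slc1a4, which exchanges alanine, serine and cysteine, was higher by 1.31 ± 0.43 SE (adjusted p = 0.0443), and its second probe gave 0.74 (adjusted p = 0.129). The Slc1a4 call was lost without any 1 of 8 arrays (each adult array and reprogrammed mammary replicates 2 and 3), with log2 from 1.19 to 1.43 and adjusted p from 0.0579 to 0.128.

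Slc1a5, the glutamine exchanger used by many dividing cells, was at 3.51, 3.71 and 3.57 in adult lung, 2.87, 2.48 and 2.52 in adult mammary, 3.41, 3.10 and 4.20 in reprogrammed lung and 2.90, 2.91 and 3.00 in reprogrammed mammary. The adult lung arrays were above both mammary groups, and the reprogrammed lung arrays spanned the adult lung values. Slc1a5 was higher in adult lung than in adult mammary by 0.97 ± 0.25 SE (adjusted p = 0.016). Without adult lung replicate 2 or adult mammary replicate 2 it gave 0.92 and 0.90, with adjusted p of 0.0598 and 0.0585. Between reprogrammed and adult lung the log2 difference was -0.02, with a 95% interval of -0.59 to 0.54.

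Among the heterodimers, 0 of 2 heavy chains and 2 of 6 light chains tested were called between the adult groups. The share over all features was 28.5%. Slc3a2, the heavy chain CD98 that most light chains use, was at 5.16, 4.87 and 4.66 in adult lung, 5.35, 4.80 and 4.81 in adult mammary, 4.74, 5.13 and 5.29 in reprogrammed lung and 4.91, 5.15 and 5.11 in reprogrammed mammary. All 4 groups overlapped, and the log2 difference between the adult groups was -0.09, with a 95% interval of -0.58 to 0.40. Slc7a5, the large neutral amino acid carrier LAT1 that pairs with Slc3a2, was at -1.77, -2.03 and -1.56 in adult lung, -0.43, 0.68 and 0.35 in adult mammary, -0.17, -0.51 and -0.28 in reprogrammed lung and 0.42, 0.77 and 0.27 in reprogrammed mammary. The 3 adult lung arrays were the lowest of the 12. Slc7a5 was 3.96-fold lower in adult lung than in adult mammary (log2 -1.99 ± 0.28 SE, adjusted p = 0.000573). Light chains with smaller values included Slc7a8, the other large neutral carrier, at -0.10, Slc7a7, a carrier of epithelia and macrophages, at -0.06, and Slc7a6 at -0.66, none of them called. The heavy chain Slc3a1, which serves cystine uptake in kidney and gut with Slc7a9, differed by -0.28, and Slc7a9 by 0.60, both not called.

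In the Slc36 family, 1 of 4 genes was called between the adult groups, as higher in adult lung, against 28.5% of all features called. Slc36a2, a carrier of glycine, proline and alanine, was at 0.66, 0.48 and 0.44 in adult lung, -1.48, -2.35 and -2.14 in adult mammary, -1.32, -2.86 and -0.41 in reprogrammed lung and -1.87, -1.48 and -1.46 in reprogrammed mammary. Adult lung was above the other 9 arrays, and reprogrammed lung had the widest spread. The log2 difference was 2.52 ± 0.50 SE between the adult groups (5.72-fold, adjusted p = 0.00401). Its neighbours in the genome, Slc36a1 and Slc36a3, differed by 0.46 and 0.49 and were not called. In Slc43, Slc43a3, a nucleobase carrier, was higher in adult lung by 2.33 ± 0.43 SE (5.02-fold, adjusted p = 0.00299) and the neutral amino acid carrier Slc43a2 by 1.18 ± 0.29 SE (adjusted p = 0.0128), while Slc43a1 differed by -0.21.

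With the slide entered as a fixed block, 7 of the 17 calls between the adult groups were kept, and only 1 slide held both adult groups. Those 7 were Slc38a1, Slc38a3, Slc38a5, Slc38a11, Slc7a2, Slc7a5 and Slc7a10. On that slide the values were -2.80 for Slc7a2, -2.45 for Slc7a5, 2.05 for Slc1a3 and 3.01 for Slc36a2. Slc7a10, Slc38a5 and Slc38a11 are given no value there, since 1 of the arrays on it was not above background for each. With normexp 9 transporters were higher and 5 lower, and the median over all features moved to 0.34.

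**Figure D2:**
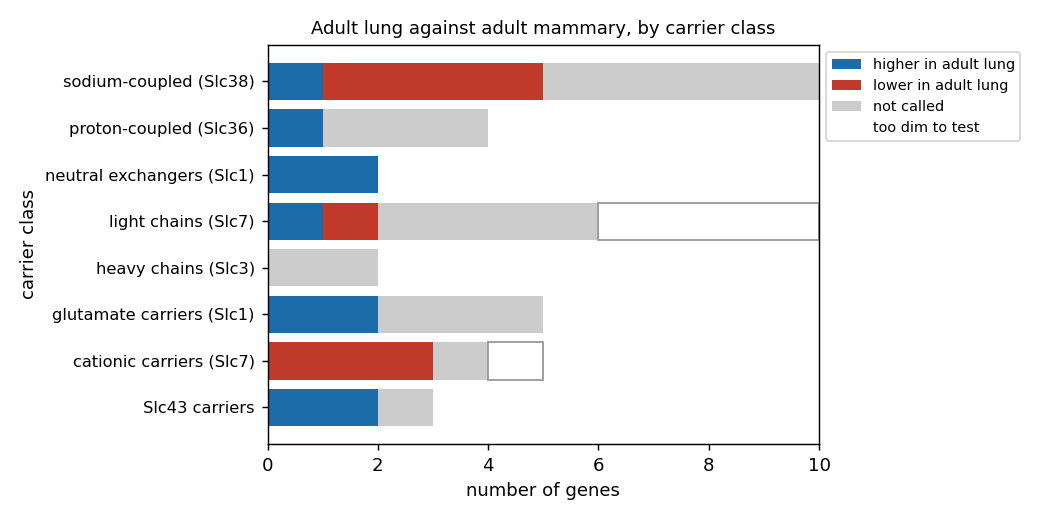
Number of transporter genes in each carrier class (horizontal axis) that were higher or lower in adult lung than in adult mammary, not called, or too dim to test. The cationic class holds 3 lower and 0 higher genes, and the Slc38 class holds 4 lower and 1 higher. Of all features, 15.9% were lower and 12.5% higher. Under normexp the signs of Slc7a3, Slc38a3 and Slc38a11 turned. The class labelled proton-coupled holds all Slc36 genes.

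**Figure D3:**
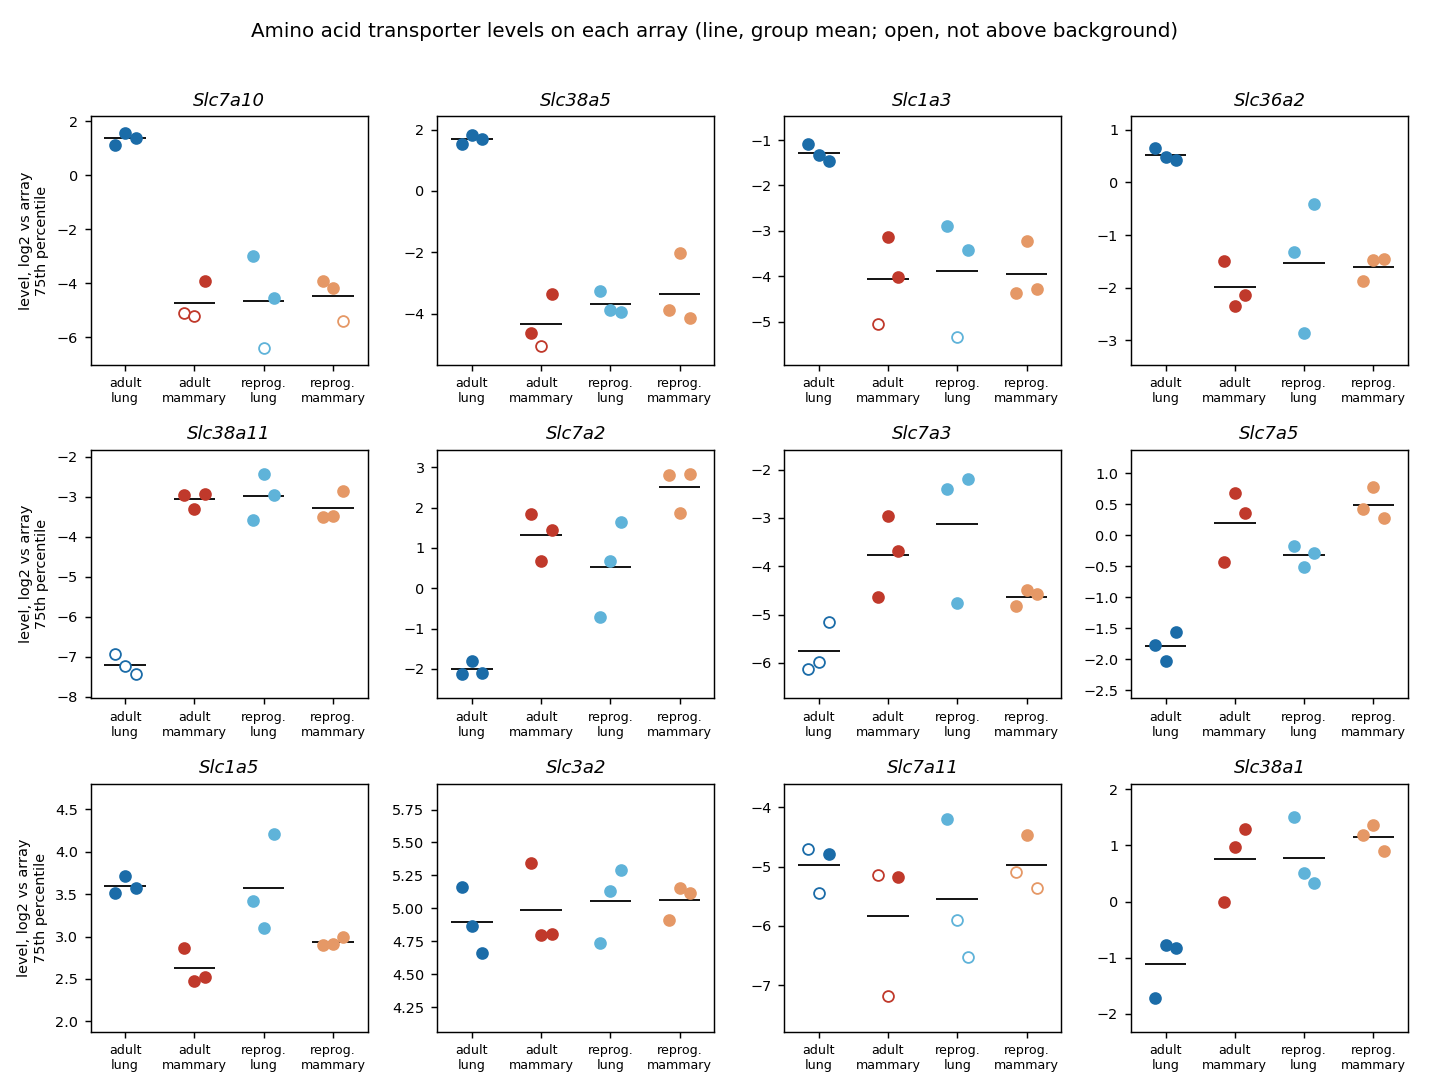
Level of 12 transporter genes on each array (vertical axis, log2 relative to the array's 75th percentile), with 3 points and a mean line per group and open points for signals not above background. Adult lung stands apart from the other 3 groups for Slc7a10, Slc38a5, Slc38a11, Slc1a3, Slc36a2, Slc7a2, Slc7a3, Slc7a5 and Slc38a1. The level of Slc3a2 lies between 4.66 and 5.35 on all 12 arrays.

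Reprogrammed lung differed from adult lung in 18 of 36 transporters, 9 higher and 9 lower, while 23.4% of all features were called, 14.1% higher and 9.31% lower. The arrays did not overlap for 21 of the 36, against 36.3% of all features. This comparison uses the same 3 adult lung arrays as the one between the adult groups, so the values of both are given side by side and no agreement is read from them. The median absolute log2 difference was 0.92 among transporters and 0.45 over all features. Lower in reprogrammed lung were Slc7a10, Slc38a5, Slc1a3, Slc38a4, Slc36a2, Slc43a3, Slc1a4, Slc43a2 and Slc36a4. Higher were Slc38a11, Slc7a3, Slc7a2, Slc38a1, Slc1a7, Slc38a3, Slc7a5, Slc7a1 and Slc38a2.

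Slc38a4 fell by 2.39 ± 0.55 SE on the log2 scale between adult and reprogrammed lung (adjusted p = 0.0105), from 0.25 ± 0.19 to -2.14 ± 1.39 (SD, n = 3 each). Its second probe gave -0.93 (adjusted p = 0.490), and without reprogrammed lung replicate 4 the value was -3.19. Slc1a7, a glutamate carrier of the retina, rose by 1.77 ± 0.47 SE (adjusted p = 0.0197), where the adult groups differed by -0.76 and were not called. Without adult lung replicate 1 or reprogrammed lung replicate 1 the Slc1a7 value was 1.35 and 1.49 (adjusted p = 0.0786 and 0.0509), and with normexp it was 0.15. Slc36a4, a carrier of proline and tryptophan, had a log2 difference of -0.92 ± 0.30 SE (adjusted p = 0.0486), and 11 of the 12 fits without 1 array lost this call, all but that without reprogrammed lung replicate 4, with log2 from -0.99 to -0.54 and adjusted p from 0.0637 to 0.161.

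The other transporters called between the lung groups had these values. Slc7a5 rose 2.75-fold (log2 1.46 ± 0.28 SE, adjusted p = 0.0037, and 0.79 with adjusted p = 0.0872 under normexp). The glutamine importer Slc38a1 rose by 1.88 ± 0.41 SE (adjusted p = 0.00797) and Slc38a3 by 1.73 ± 0.32 SE (adjusted p = 0.00328), the latter at 0.03 under normexp. Slc7a1 rose by 0.94 ± 0.23 SE (adjusted p = 0.0146) and Slc38a2 by 0.85 ± 0.22 SE (adjusted p = 0.0166). Without adult lung replicate 2 or 3 Slc38a2 gave 0.79 and 0.84 (adjusted p = 0.0662 and 0.0535). Slc1a3 had a difference of -2.60 ± 0.64 SE (adjusted p = 0.014), which was -2.49 (adjusted p = 0.051) without adult lung replicate 1 and -1.87 without reprogrammed lung replicate 3. Slc36a2 had -2.06 ± 0.50 SE (adjusted p = 0.0131, and -1.39 without reprogrammed lung replicate 3) and Slc43a3 -1.77 ± 0.43 SE (adjusted p = 0.014, and -2.36 without reprogrammed lung replicate 4). Slc43a2 had -1.35 ± 0.29 SE (adjusted p = 0.00744). Slc1a4 had -1.41 ± 0.43 SE (adjusted p = 0.0376), its second probe gave -0.15, and 6 fits without 1 array lost the call, those without any adult lung array, adult mammary replicate 1 or reprogrammed mammary replicates 2 or 3, with adjusted p from 0.0508 to 0.115.

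Reprogrammed lung replicates differed among themselves in several of these genes. Slc7a10 ran from -6.42 to -3.00, Slc7a2 from -0.72 to 1.64 and Slc36a2 from -2.86 to -0.41 over the 3 arrays. On the 3 slides that held both lung groups, the Slc7a5 difference was 1.25, 1.39 and 1.74. The Slc7a10 difference was -4.37 and -6.12 on the 2 of these slides where both arrays were above background for it, and Slc38a11 had no such slide. Beside these values, luminal and milk markers summed to 22.0 to 409 in reprogrammed lung and 0.70 to 0.79 in adult lung, and 9 of 10 endothelial genes were lower in reprogrammed lung, and the part of either in the transporter values was not tested. With normexp 3 transporters were higher and 7 lower, and the median over all features moved to -0.20.

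Reprogrammed mammary, set against adult lung, had 8 transporters higher and 6 lower, while 26.1% of all features were called, 14.9% higher and 11.2% lower. The arrays did not overlap for 27 of the 36, against 57.1% of all features. The higher ones were Slc7a2 (log2 4.50 ± 0.53 SE, 22.7-fold, adjusted p = 0.000225), Slc38a11 (at least 3.08-fold), Slc7a5 (2.27), Slc38a1 (2.26), Slc38a3 (1.22), Slc7a1 (0.83), Slc38a2 (0.76) and Slc38a10 (0.55). The lower ones were Slc7a10 (-5.85 ± 0.74 SE), Slc38a5 (-5.03 ± 0.56 SE), Slc1a3 (-2.67), Slc43a3 (-2.52), Slc36a2 (-2.13) and Slc43a2 (-1.41). For Slc38a5 the value was -5.69 without reprogrammed mammary replicate 2. With normexp Slc38a11 and Slc38a3 had -0.10 and -0.22, and 5 transporters were higher and 7 lower, whereas scaling on array medians gave 5 higher and 6 lower. Calls lost without 1 array were those of Slc38a10 (5 arrays, log2 0.49 to 0.59, adjusted p 0.0538 to 0.0945), Slc38a2 (5 arrays, 0.70 to 0.78, 0.0662 to 0.0922), Slc7a1 (5 arrays, 0.70 to 0.87, 0.0569 to 0.0931) and Slc38a3 (3 arrays, 0.93 to 1.08, 0.0683 to 0.0731), in each case arrays of adult lung or reprogrammed mammary.

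Among adult mammary, reprogrammed mammary and reprogrammed lung, 0 of 36 transporters were called in limma in any of the 3 comparisons, against 0.00408% of all features between reprogrammed and adult mammary, 0.00408% between the reprogrammed groups and 0.0122% between reprogrammed lung and adult mammary. At an unadjusted p under 0.05 there were 3, 4 and 3 of the 36 transporters, against 10.0%, 9.58% and 11.8% of all features. The smallest adjusted p among the transporters were 0.394, 0.307 and 0.229. The median 95% interval, not adjusted for the number of features, reached 0.70 to either side on the log2 scale. The adjusted test can miss larger differences, and Slc7a2, at -1.97 between the reprogrammed groups, was not called. Intervals lay wholly within 1 log2 unit of 0 for 16, 17 and 15 of the 36 genes.

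**Figure D4:**
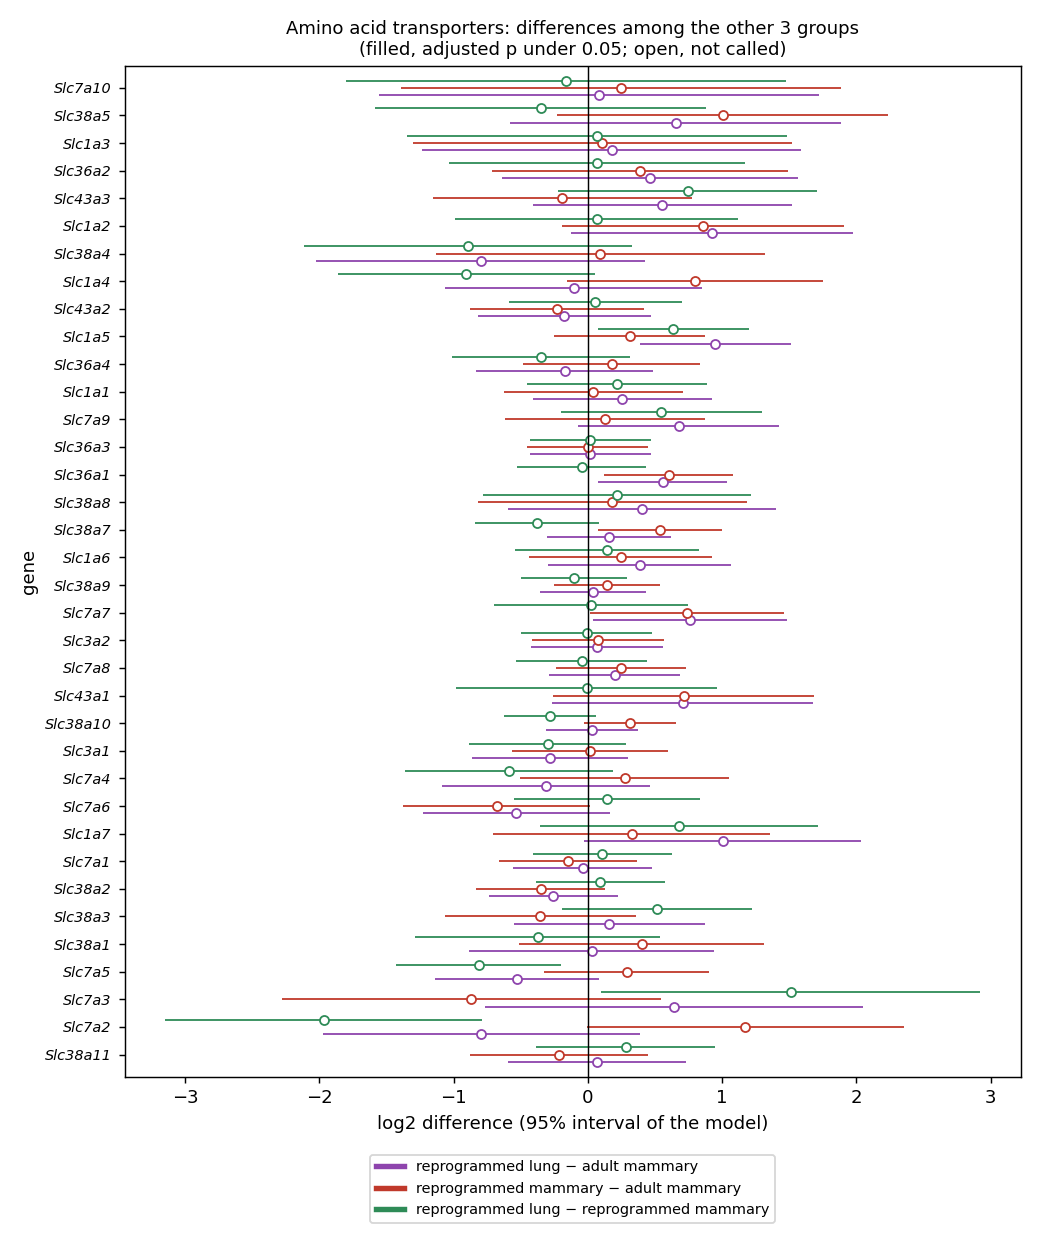
Log2 difference of each of the 36 tested transporters (horizontal axis, with the model's 95% interval) in the 3 comparisons among adult mammary, reprogrammed mammary and reprogrammed lung. No point is filled, since no adjusted p was under 0.05, and the lowest value is Slc7a2 at -1.97 between the reprogrammed groups.

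Between the reprogrammed groups the largest value was that of Slc7a2, -1.97 (95% interval -3.15 to -0.78, adjusted p = 0.307) in reprogrammed lung minus reprogrammed mammary, with no overlap between arrays. On the slide that held both groups the Slc7a2 difference was -0.23. Slc7a3 had 1.51 (interval 0.10 to 2.92), Slc7a5 -0.81 (-1.42 to -0.20) and Slc1a5 0.64 (0.08 to 1.20), none of them called. Arrays did not overlap for 4 of 36 transporters, where 13.2% of all features had no overlap. Without reprogrammed lung replicate 4, Slc38a4 was called lower in reprogrammed lung than in reprogrammed mammary and than in adult mammary, and no other fit without 1 array called a transporter in these 3 comparisons.

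Between reprogrammed and adult mammary, arrays of 9 transporters did not overlap, against 23.4% of features. The lowest unadjusted p were those of the lysosomal proton-coupled carrier Slc36a1, at 0.60 (interval 0.12 to 1.08), the lysosomal glutamine carrier Slc38a7, at 0.54 (0.08 to 1.00), and Slc7a7, at 0.74 (0.01 to 1.46). Slc7a2 was at 1.17, and Slc38a5 at 1.01. Between reprogrammed lung and adult mammary, only Slc1a5 had no overlap, at 0.95 (interval 0.39 to 1.51, adjusted p = 0.229), where 11.4% of all features had none.

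The change from adult to reprogrammed cells was also compared between the organs named lung and mammary. It differed for 8 of 36 transporters, 4 in each direction, while 12.8% of all features were called, 7.41% with a higher and 5.39% with a lower change in lung. The authors' series matrix values gave 1 higher and 5 lower, and normexp and the replicate block each gave 1 higher and 3 lower. Median scaling and quantile normalization gave 3 higher and 5 lower, and array weights 5 higher and 10 lower. Slc7a10, Slc38a5, Slc36a2 and Slc1a4 had the lower change in lung, and Slc38a11, Slc7a3, Slc38a3 and Slc38a2 the higher one. By its form, this value equals the difference between the reprogrammed groups, where 0 transporters were called, minus that between the adult groups. It is therefore not separate from the adult comparison, in which Slc7a10 was at 6.10, against -6.26 here.

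The remaining 5 transporters, all light or cationic members of Slc7, were too dim to test. Slc7a11, the cystine and glutamate exchanger that feeds glutathione synthesis, was at -4.70, -5.44 and -4.78 in adult lung, -5.13, -7.18 and -5.17 in adult mammary, -4.20, -5.90 and -6.53 in reprogrammed lung and -5.09, -4.47 and -5.36 in reprogrammed mammary. It was above background on 1 array of each group, and all 4 groups overlapped. Slc7a15 was above background on 0 arrays, Slc7a12 on 1, Slc7a13 on 3 and Slc7a14 on 4.

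For 14 genes with at least 2 tested probes, the probes gave the same call between the adult groups for 11 and opposite calls for 0. The probes gave values of the same sign for 11 of the 14. The second probes of Slc38a1, Slc38a2 and Slc7a1 gave -1.83, -0.87 and -1.01 between the adult groups, each called. Slc38a9, not called by its brighter probe at 0.02, was called by its second probe at 0.78 (adjusted p = 0.0163). The probes can lie in different transcripts of a gene, and their positions were not used here.

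Other genes of amino acid handling were read from lists, and their counts stand beside 28.5% of all features called between the adult groups and 23.4% between the lung groups. Among 13 other carriers, 4 were higher and 1 lower in adult lung than in adult mammary, and 2 were higher and 3 lower in reprogrammed than in adult lung. The broad neutral and cationic carrier Slc6a14 had log2 differences of 4.34 and -3.61, and the peptide carrier Slc15a2 of -2.50 and 2.00. Among 8 mitochondrial carriers the counts were 0 and 2, then 2 and 0, with the aspartate-glutamate carrier Slc25a13 at -2.24 and 1.32.

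Of 24 amino acid response genes, 1 was higher and 10 lower in adult lung than in adult mammary, with a median of -0.39. The counts were 6 higher and 1 lower in reprogrammed than in adult lung, with a median of 0.32. Stc2, a secreted glycoprotein induced by ATF4, had -5.97 ± 0.75 SE and 4.80 ± 0.75 SE, with 2 of 3 adult lung arrays above background. The serine synthesis enzymes Psat1 and Phgdh had -2.35 and -1.17 between the adult groups. Ddit4, an inhibitor of mTORC1, had -1.57 and 2.01. Asparagine synthetase, Asns, had -0.59 (adjusted p = 0.0459) between the adult groups, and the exception in direction was the factor Atf5, at 0.88 and -1.15.

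Of 11 arginine and polyamine enzymes, 1 was higher and 7 lower in adult lung than in adult mammary (median -1.17), and 5 were higher and 0 lower in reprogrammed than in adult lung (median 1.00). Arg1 and Arg2, which cleave arginine to ornithine and urea, had -3.65 and -3.11 between the adult groups. Each was above background on 2 of 3 adult lung arrays. Odc1, which makes putrescine from ornithine, had -1.68 ± 0.16 SE (adjusted p = 7.12e-05). Odc1 and Arg2 had 1.53 and 2.73 between the lung groups. Ass1, which makes the precursor of arginine, was the higher one at 0.65.

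In 10 glutathione genes, 0 were higher and 5 lower in adult lung than in adult mammary (median -0.87), and 5 were higher and 0 lower in reprogrammed than in adult lung (median 0.56). Ggt1, which cleaves extracellular glutathione, had -3.15 and 2.08. Of 12 glutamine and glutamate enzymes, 1 was higher and 4 lower, then 4 higher and 1 lower, with the proline synthesis enzyme Aldh18a1 at -2.07 and 1.76 and the aminotransferase Got1 at -1.44 and 1.38. Among 20 cytosolic aminoacyl-tRNA synthetases, 1 was higher and 5 lower between the adult groups and 1 higher and 1 lower between the lung groups. Wars, the interferon-inducible tryptophan enzyme, was the higher one at 1.36 and had -1.46 between the lung groups.

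In the mTORC1 sensing list, 2 of 32 genes were higher and 2 lower between the adult groups, and 2 were higher and 0 lower between the lung groups, with the sestrin Sesn3 at -1.62 and 1.22. Of 12 branched-chain catabolic genes, 1 was higher and 2 lower, then 1 higher and 1 lower. The called share of both lists was under that of all features in both comparisons. So was that of the synthetases between the lung groups and of the mitochondrial carriers between the adult groups. The shares of the synthetases between the adult groups and of the mitochondrial carriers between the lung groups were close to those of all features. None of these lists had a called gene in any of the 3 comparisons among the other groups.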

How the data were processed

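Scanner files of 12 single-colour arrays were used. Per the file headers, the authors' Agilent Feature Extraction 10.5.1.1 (10.1 per the submitters' processing notes) gave each spot a processed intensity after background subtraction, with no scaling between arrays. The authors' series matrix holds deposited log2 values with their method not given in the sources used here, and it served as an alternative. Outlier spots were left out, log2 was taken of each spot, spots of a probe were averaged and the array's 75th percentile was subtracted. The signal at that percentile was 293.8 to 608.5, against negative-control medians of 18 to 23, and the number of arrays limits precision. Of 41174 probes, 24844 were named through RefSeq accessions. Features above background on all 3 arrays of a group were tested (24497 of 32679) with limma 3.58.1 in R 4.3.3, a mean per group, empirical Bayes and Benjamini-Hochberg adjustment at 0.05, two-sided. The pipeline was tested on simulated data.

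All called members were named, the 25 with the largest differences at most, and array values were given for the 6 widest in the adult and the lung comparison and for Slc3a2, Slc7a5, Slc7a11 and Slc1a5. Up to 4 called genes of each pathway list were to be named. Ass1, Asns, Atf5, Phgdh, and uncalled members given with values, were chosen after their values were seen. Members and lists were chosen with earlier results of these data known. Alternatives were normexp, the series matrix, quantile or median scaling, 2 filters, all probes averaged, slide and replicate blocks, array weights, only the groups compared, a variance trend and leaving arrays out. Normexp ran on the median signal, since the files hold no mean signal. Its offset of 50 was added to every signal before log2, so the values of dim genes under it depend on that offset. One list of carrier partner proteins is not reported here.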

Additional observations from a re-analysis of the deposited data

Results flagged for a closer look

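The change from adult to reprogrammed cells differed between lung and mammary for 8 transporters by limma's interaction term, adjusted over all features. The value is the log2 change in lung minus that in mammary. Equally, it is the difference between the reprogrammed groups minus that between the adult groups. It is therefore not separate from the adult comparison. It was -6.39 for Slc38a5 (adjusted p = 0.00109), -6.26 for Slc7a10 (adjusted p = 0.00465), -2.45 for Slc36a2 (adjusted p = 0.0458) and -2.21 for Slc1a4 (adjusted p = 0.0393). It was 4.42 for Slc38a11 (adjusted p = 0.000329), 3.50 for Slc7a3 (adjusted p = 0.0299), 2.09 for Slc38a3 (adjusted p = 0.0151) and 1.20 for Slc38a2 (adjusted p = 0.029). Slc38a11 and Slc7a3 were not above background on any adult lung array. The calls of Slc7a10, Slc38a5, Slc38a11 and Slc38a3 held without any 1 array. The call of Slc1a4 was lost without any array other than those of reprogrammed lung (log2 -2.36 to -1.95, adjusted p 0.0605 to 0.0987). That of Slc36a2 was lost without any adult lung or reprogrammed mammary array or adult mammary replicates 2 or 4 (-2.58 to -2.27, 0.0776 to 0.102). That of Slc38a2 was lost without adult lung replicates 2 or 3, adult mammary replicates 1 or 2, reprogrammed lung replicate 3 or any reprogrammed mammary array (1.09 to 1.22, 0.0528 to 0.0779). That of Slc7a3 was lost without adult lung replicates 1 or 2, adult mammary replicates 2 or 4 or any reprogrammed mammary array (3.11 to 3.58, 0.0588 to 0.0734). Without reprogrammed lung replicate 3, Slc7a10 was at -5.38, Slc36a2 at -1.78 and Slc7a3 at 4.32, and Slc38a5 was at -5.72 without reprogrammed mammary replicate 2. Under normexp Slc38a11 was at 0.17, Slc7a3 at 0.21 and Slc38a3 at 0.16, none called. With the authors' series matrix values these 3 were not called either (1.49, 1.21 and 0.98, adjusted p = 0.0632, 0.0934 and 0.0564). Slc7a3 and Slc38a3 were also not called with slide as a fixed block (3.76 and 1.95, adjusted p = 0.0604 and 0.0744) or with the replicate block (3.03 and 2.03, adjusted p = 0.161 and 0.101). With either of these blocks Slc1a4, Slc36a2 and Slc38a2 were not called, with adjusted p from 0.0673 to 0.151. No transporter was flagged for a stray array, since groups of 3 are not tested for one.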

How the results depend on the processing

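Calls of Slc7a10, Slc38a5, Slc7a2 and Slc38a1 held under every alternative that tested them, both between the adult groups and between the lung groups; the cause of the changes below was not tested. Requiring signal on all arrays left Slc7a10 and Slc38a5 untested. With normexp, 10 transporters were called between the lung groups and 4 for the difference of changes, and signs turned between the adult groups for Slc38a11 (0.017), Slc38a3 (0.090) and Slc7a3 (0.45) and between reprogrammed mammary and adult lung for Slc38a11 (-0.10) and Slc38a3 (-0.22). With slide as a fixed block, 7 were called between the adult groups, 7 between reprogrammed mammary and adult lung and 4 for the difference of changes. With the replicate number as a block, 13 were called between the adult groups, 11 between the lung groups, 11 between reprogrammed mammary and adult lung and 4 for the difference of changes. Same-numbered arrays correlated at r from -0.53 to 0.33 over 13 pairs, so the numbers are not taken to pair them. Array weights gave 26 between reprogrammed mammary and adult lung and 15 for the difference of changes, and fits of only the groups compared gave 24 for the former and 9 between the lung groups. For the difference of changes, signal on all arrays gave 4 and no filter 5. Leaving out 1 array at a time gave 14 to 20 calls between the adult groups, 13 to 19 between the lung groups, 10 to 18 between reprogrammed mammary and adult lung, 4 to 12 for the difference of changes, 0 to 1 for reprogrammed lung against either mammary group and 0 for reprogrammed against adult mammary. Every alternative not named left the counts of calls within 1.5 times. Dim genes are limited by signal over background.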
